A study of Homo sapiens and Mus musculus with 16 samples.

Results

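Metallothioneins are small proteins rich in cysteine that bind zinc, copper and cadmium. The 7 genes described here (MT1A, MT1E, MT1F, MT1G, MT1M, MT1X and MT2A) were taken by name from a table of 22314 genes. They were chosen with earlier results of these data known, and all 7 were above 0 in every library. Cells of the human line SK-HEP-1, established from a liver cancer, received DMSO (U, untreated) or 0.5 mg/ml AcFBE, an ethanol extract of fruiting bodies of the medicinal fungus Antrodia cinnamomea (T, treated), for 2 or 4 h. One mRNA library was sequenced per condition (2U, 2T, 4U and 4T), so a comparison at 1 time is between single libraries and has no test. The levels are FPKM, mapped fragments scaled to the length of the exons and to the size of the library, so that levels can be set side by side between genes per length. In bulk RNA, fewer cells with an mRNA and less of it per cell cannot be told apart.

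Metallothioneins hold metal ions in clusters of thiolates and buffer the free zinc and copper of the cell. Their genes are switched on by zinc and cadmium through the transcription factor MTF1, which binds short metal response elements in their promoters, and also by glucocorticoids and oxidative stress. In liver they are known as an early response to metals and inflammation, and MT2A is usually the most abundant of the human genes. The comparison asks whether these genes, which respond to metals and stress, were among the mRNAs that differed early after AcFBE.

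The label of a liver cell was set against marker genes first. Of 10 hepatocyte markers, 8 were listed at 0 in all 4 libraries, ALB among them, and only SERPINA1 (8.59 to 18.7 FPKM) was above 1 FPKM. All 6 endothelial markers were listed at 0. Of 6 mesenchymal markers, COL1A2 was listed at 0 throughout and COL1A1 in all but 4T (0.271 FPKM). VIM, an intermediate filament protein, stood at 6465 to 13625 FPKM, SPARC at 680.3 to 1073, CAV1 at 115 to 260 and FN1 at 4.92 to 14.5. The FPKM of a library summed to 786224 to 845681, and the 2 time points differed in how low values were kept. At 2 h, 2656 genes in 2U and 1173 in 2T had values between 0 and 0.2 FPKM, and at 4 h there were 0 such genes in both libraries. The low values at 2 h also repeated at fixed ratios, as whole reads give, and placed 2T at 1.08 times the depth of 2U (155 of 3462 low genes shared 1 step). In the 4 h pair the fullest step held 50 of 3416 low genes, so no depth was taken from it. The part of this in the differences between 2 h and 4 h libraries was not tested. Zeros also differed, since 32 of 1614 genes with at least 10 FPKM in the other 3 libraries were listed at 0 in 2T, and 0 such genes were found for 2U, 4U or 4T. A value of 0 in 2T is therefore given as listed and not as a low level.

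The 7 genes lie together on chromosome 16, between 56642496 and 56718108 in GRCh37, within 75613 bases. In GENCODE gene models lifted to that build, MT2A spans 56642496 to 56643409, MT1E 56659387 to 56661024, MT1M 56666571 to 56667893, MT1A 56672578 to 56673999, MT1F 56691643 to 56694610 and MT1X 56716382 to 56718108, all on the plus strand. MT1G spans 56700642 to 56701977 on the minus strand. The reference transcripts have 2 exons in MT1E and 3 in the other 6 genes, and are 396 to 425 bases long apart from MT1E, at 746. A promoter of 300 bases, 250 before the start and 50 after it, was found in the RefSeq table (GRCh38.p14) for 2 of the 7 genes, MT2A at chr16:56608334-56608633 and MT1X at chr16:56682220-56682519, both on the plus strand. The other 5 members had no entry there, so only these 2 promoters are shown. MT2A was the most abundant member and MT1X the member with the largest difference between treated and untreated cells. Capitals mark the core of the metal response element on either strand, TGCACNC or TGCGCNC, with N for any base.

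MT2A: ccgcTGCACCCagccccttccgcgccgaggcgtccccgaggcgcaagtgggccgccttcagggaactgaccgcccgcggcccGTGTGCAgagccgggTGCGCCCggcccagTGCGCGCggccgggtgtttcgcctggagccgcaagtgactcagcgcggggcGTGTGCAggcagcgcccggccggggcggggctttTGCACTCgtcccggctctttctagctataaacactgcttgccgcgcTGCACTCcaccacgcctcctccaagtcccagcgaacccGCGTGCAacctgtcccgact
MT1X: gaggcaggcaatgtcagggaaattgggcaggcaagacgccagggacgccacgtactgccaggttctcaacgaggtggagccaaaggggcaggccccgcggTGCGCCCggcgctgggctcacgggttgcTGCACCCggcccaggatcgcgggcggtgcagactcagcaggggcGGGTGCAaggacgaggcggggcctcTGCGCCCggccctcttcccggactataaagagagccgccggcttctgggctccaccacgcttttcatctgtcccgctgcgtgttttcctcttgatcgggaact

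The promoter of MT2A held 8 such cores and that of MT1X held 4, and none of them overlapped another. Among all 35116 promoters of the table, 29.6% held at least 1 core, 211 (0.601%) held 4 or more and 7 (0.0199%) held 8 or more. In MT2A the core nearest upstream of the start lay 8 bases before it, and in MT1X 53 bases before it. Both promoters had a TATA box (TATAAA), beginning 29 bases before the start in MT2A and 30 in MT1X, which 11.5% of all promoters hold on either strand. MT2A alone of the pair held an AP-1 site (TGACTCA), beginning 104 bases before the start, which 4.95% of promoters hold. A match of letters is a description of the sequence and no evidence of binding in these cells.

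The members were close copies of each other, which bears on every value below. The reads were 35 bases long and were mapped with up to 2 mismatches. Of the 35-base windows of each reference transcript, 33.8% (MT1F) to 70.3% (MT1M) were also found, with up to 2 mismatches, in the transcript of another metallothionein gene or pseudogene. The share was 34.9% in MT1X, 42.2% in MT2A, 49.2% in MT1A, 50.0% in MT1E and 51.9% in MT1G. Exact copies elsewhere were fewer, from 11.5% of the windows in MT1F to 33.5% in MT1M. MT1M shared 60.7% of its windows with the pseudogene MT1JP and 44.8% with MT1E, an abundant member. MT2A shared 40.6% with the pseudogene MT2P1. MT1X shared 28.6% with MT2A, and 11.4% in exact copies. How the authors' counting divided such reads is not given in the sources used here, so MT1X and the low members beside MT2A and MT1E are uncertain. By transcript length and the total of mapped reads per library, the 4 lowest members rested on roughly 24 to 80 reads per library, MT1X on 160 to 430 and MT2A on 10000 or more. These are rough values for amplified and shared reads, so no interval was taken from them.

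**Figure D1:**
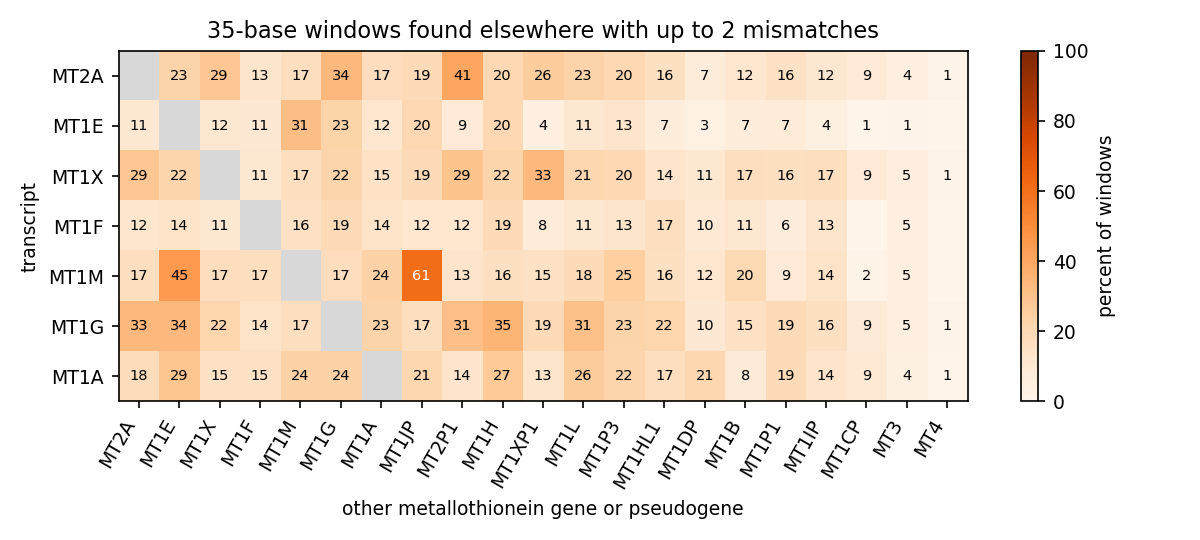
Percent of the 35-base windows of each metallothionein transcript (rows) found in each other metallothionein gene or pseudogene (columns) with up to 2 mismatches, with the percent written in the cell where it is 0.5 or more and grey where row and column are the same gene. The strongest pair was MT1M with MT1JP, at 60.7% of windows, and MT1F shared 33.8% of its windows with any other gene.

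MT2A, the major human metallothionein, was far above the other members in all 4 libraries. It stood at 3750.0 FPKM in 2U against 6551 in 2T, and 12839 in 4U against 8362 in 4T, which ranked it 52nd, 28th, 10th and 17th of all genes in that order. Of the summed FPKM of the 7 genes it made up 75.8% in 2U against 86.2% in 2T, and 93.6% in 4U against 87.8% in 4T. MT2A thus set the family total, which was 4944 FPKM at 2 h and 13710.0 at 4 h in untreated cells, and 7597 and 9528 in treated cells. As a share of the summed FPKM of the whole library, the 7 genes took 0.605% in 2U against 0.966% in 2T, and 1.62% in 4U against 1.15% in 4T.

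MT1E, an MT1 isoform, was second in every library, at 962 FPKM at 2 h and 680.4 at 4 h in untreated cells, and 924 and 1024 in treated cells. It was the nearest member to MT2A in 2U, where its FPKM was 25.6% of that of MT2A, against 5.30% in 4U. MT1X, another isoform known to respond to metals, came next in every library, at 159.7 FPKM in 2U against 53.5 in 2T, and 121 in 4U against 71.9 in 4T. Its untreated values both lay above its treated values.

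The other 4 members were between 8.34 and 26.0 FPKM and their order changed between libraries. MT1F stood at 19.1 FPKM at 2 h and 20.3 at 4 h in untreated cells, and 25.4 and 22.7 in treated cells. MT1M stood at 26.0 FPKM in 2U against 22.4 in 2T, and 16.4 in 4U against 21.6 in 4T. MT1G stood at 18.8 FPKM at 2 h and 15.6 at 4 h in untreated cells, and 12.7 and 14.3 in treated cells. MT1A was the lowest member in 3 of the 4 libraries. It stood at 8.96 FPKM in 2U against 8.34 in 2T, and 17.7 in 4U against 11.7 in 4T. Neighbours in this order were often close, with MT1F 1.01 times MT1G in 2U and MT1F 1.05 times MT1M in 4T, and without replicates their order could not be separated from error. The step from MT1E to MT1X was the widest among the members in 2T and 4T, at 17.3-fold and 14.2-fold.

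**Figure D2:**
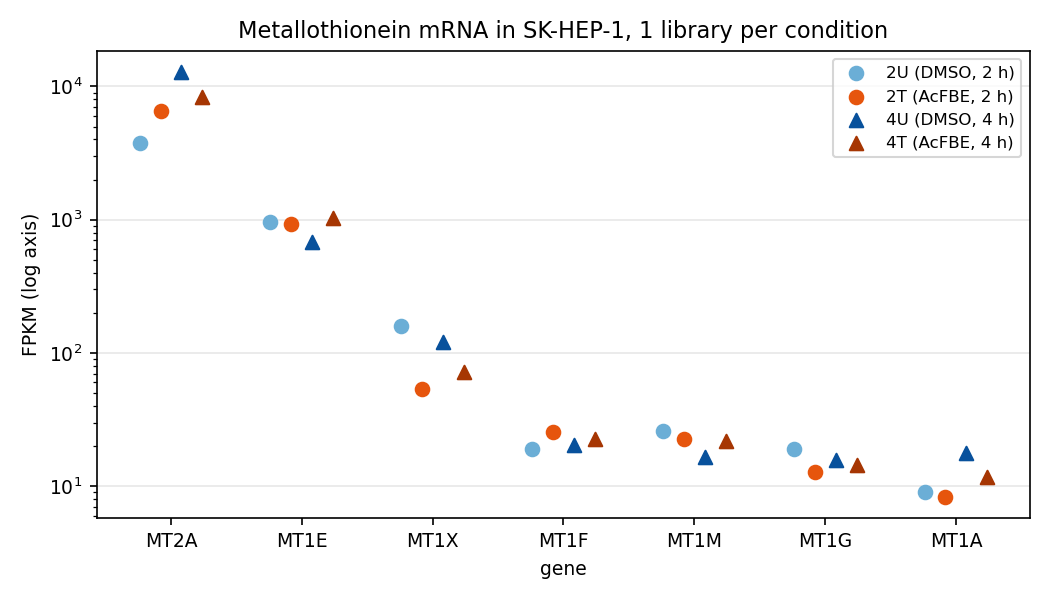
FPKM of the 7 metallothionein genes (log axis), ordered by their mean, with circles for 2 h, triangles for 4 h, blue for DMSO and orange to brown for AcFBE, and 1 point per library. MT2A (3750.0 to 12839 FPKM) and MT1E (680.4 to 1024) stand above MT1X (53.5 to 160), and the other 4 genes lie between 8.34 and 26.0 FPKM.

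After 2 h of AcFBE, the metallothioneins showed no common direction. MT1X was 0.335 times its untreated level (53.5 against 159.7 FPKM, log2 ratio -1.58) and was the only member past 2-fold, and 0 of 7 were at least 2-fold higher. Among the 5211 genes with a mean of at least 1 FPKM that were above 0 in both libraries, 18.7% were at least 2-fold lower and 22.6% at least 2-fold higher, so 1 of 7 lower is near the share of all genes. MT2A was 1.75 times its untreated level (log2 ratio 0.80), the largest difference upward, and lay above 73.4% of all genes. MT1X lay above 8.58% of them. With 1.5-fold as the limit, MT2A was the 1 member counted as higher, beside 32.2% of all genes, and with 3-fold 0 members were lower, beside 8.52%.

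The remaining members were nearer to their untreated level at 2 h. MT1F was higher, with a log2 ratio of 0.41, and MT1G was lower, with -0.57. MT1M (-0.21), MT1A (-0.10) and MT1E (-0.06) lay within 0.25 of the untreated level or less. The median log2 ratio of the 7 genes was -0.10, beside 0.03 over all 5211 genes. The summed FPKM of the family was 1.54 times the untreated sum, and without MT2A it was 0.876 times (1046 against 1194 FPKM). The family total, set by MT2A, was thus higher at 2 h while 5 of the 7 genes were lower, MT1M, MT1A and MT1E only slightly. The sum without MT2A was mostly MT1E, at 924 FPKM in 2T and 962 in 2U.

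After 4 h, none of the 7 genes was 2-fold higher or lower than in 4U. Of the 5392 genes compared, 16.4% were at least 2-fold higher and 27.7% at least 2-fold lower, and the median log2 ratio over these genes was -0.35. MT1X was again the lowest member, at 0.595 times its untreated level (71.9 against 121 FPKM, log2 ratio -0.75). MT2A was 0.651 times its untreated level (log2 ratio -0.62), where it had been above it at 2 h. With 1.5-fold as the limit, 1 member was higher and 3 were lower, beside 24.8% and 42.3% of all genes. MT1A was lower too (-0.60), and MT1E (0.59), MT1M (0.40) and MT1F (0.16) were higher.

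The shift of all genes at 4 h decided the sign of 1 member. Relative to the median of all genes, 4 members were higher and 3 lower, and MT1G changed from -0.12 to 0.24. MT1X stood at -0.39, MT2A at -0.26 and MT1A at -0.25 relative to that median. The median of the 7 genes was -0.12, or 0.24 relative to all genes. The summed FPKM of the family was 0.695 times the untreated sum at 4 h, and 1.34 times without MT2A (1166 against 871 FPKM), the reverse of 2 h in both respects.

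**Figure D3:**
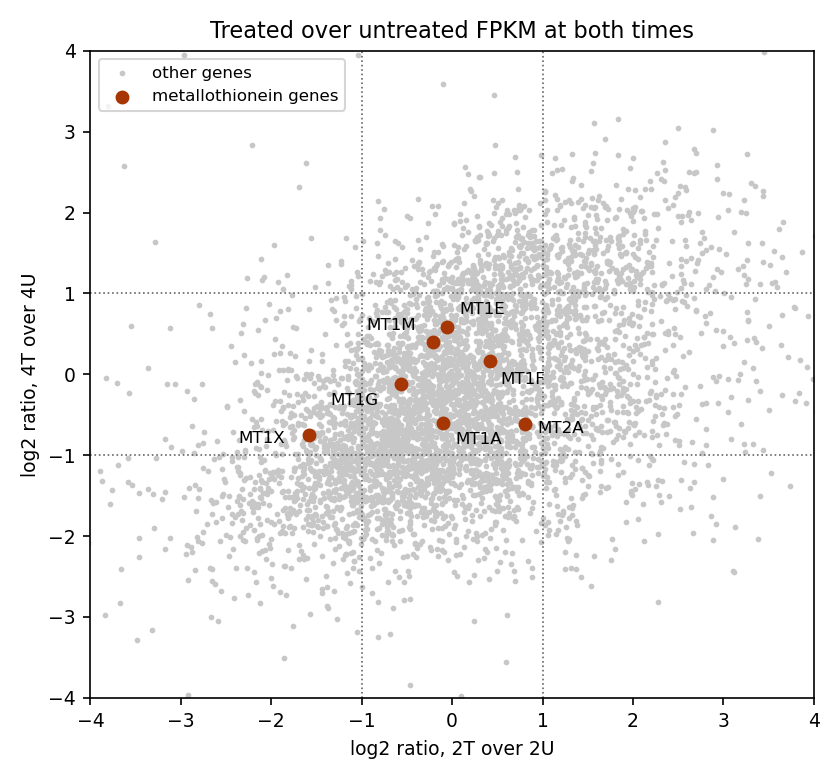
Log2 ratio of treated over untreated FPKM at 2 h (x axis) and 4 h (y axis) for the 7 metallothionein genes (brown, named) and the other genes above 0 in all 4 libraries with a mean of at least 1 FPKM (grey), with dotted lines at 2-fold. The axes stop at 4, which leaves out 77 of 5199 genes, and the metallothioneins lie inside the 2-fold lines except MT1X at 2 h.

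Set across both times, the same direction was seen in 4 of 7 members. MT1X and MT1G were lower in both treated libraries than in both untreated ones, and MT1F was higher in both. Among 5199 genes above 0 in all 4 libraries, 33.9% were lower in both treated libraries and 24.7% higher in both, so 2 of 7 and 1 of 7 do not stand apart from all genes. For MT1G the nearest values were 14.3 FPKM in 4T and 15.6 in 4U, and for MT1F 20.3 in 4U and 22.7 in 4T. Relative to the median of all genes MT1G was above its untreated level at 4 h (0.24), as it was with upper quartile scaling (0.17), which leaves the same direction in 3 of 7 members. The other 4 members overlapped between treated and untreated cells. For MT2A and MT1M both treated values lay between the untreated values.

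With the times taken as 2 pairs, treated and untreated libraries were compared by limma over the 5199 genes above 0 in all 4, with the time as a block and 1 residual degree of freedom. The comparison was added after the data were seen. No gene passed an adjusted p of 0.05 (0 of 5199, or 0%), and 999 (19.2%) had an unadjusted p under 0.05. MT1X had a mean log2 ratio of -1.16 with a 95% interval of -2.46 to 0.14 and an adjusted p of 0.278 by limma, and was lower in both pairs. MT2A had 0.09 with an interval of -1.37 to 1.56. The interval of MT2A reached past 2-fold in both directions. The spread behind these intervals came from differences between the 2 h and 4 h ratios, over these and other genes, and not from replicates. For MT2A those ratios were 0.80 and -0.62.

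Differences between the times were wider in untreated than in treated cells for 5 of the 7 genes, beside 68.6% of all 5199 genes, and for 6 of the 7 relative to the median of all genes, beside 69.6%. MT2A was 3.42 times higher in 4U than in 2U (log2 ratio 1.78), above 91.0% of all genes, and was the only member past 2-fold. Of 5328 genes, 21.6% were at least 2-fold higher in 4U and 9.89% at least 2-fold lower. MT1A was 1.98 times higher in 4U (log2 ratio 0.99), while MT1M (-0.66), MT1E (-0.50), MT1X (-0.40) and MT1G (-0.28) were lower and MT1F was nearly level (0.09). The median log2 ratio of the 7 genes was -0.28, beside 0.15 over all genes.

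Between 4T and 2T, none of the 7 genes reached 2-fold. Of 5206 genes, 4.15% were at least 2-fold higher and 5.19% at least 2-fold lower. MT1A (0.49), MT1X (0.43) and MT2A (0.35) were the members highest in 4T relative to 2T on the log2 scale, and MT1F (-0.17) the lowest. The median was 0.17, beside -0.08 over all genes. MT1X and MT1F were the 2 members further apart between the treated than between the untreated libraries.

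The choice of the untreated library therefore decided the direction of MT2A. Against the untreated library of the other time, MT2A was lower in 2T (log2 ratio -0.97, 2T against 4U) and higher in 4T (1.16, 4T against 2U), the reverse of the matched comparisons. At least 2-fold lower in 2T than in 4U were 2 members, MT1X and MT1A, beside 19.1% of all genes. In 4T against 2U, MT2A was the 1 member higher and MT1X the 1 lower, beside 22.4% and 22.8%. MT1X stayed lower, at -1.17 for 2T against 4U and -1.15 for 4T against 2U. MT1A was lower in 2T than in 4U (-1.09) and higher in 4T than in 2U (0.39).

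The range over the 4 libraries was narrow for most members. The highest value was 1.33 times the lowest in MT1F, 1.48 in MT1G, 1.504 in MT1E and 1.58 in MT1M, where the median of 5199 genes was 2.65. Of those genes, 3.64% had a narrower range than MT1F and 11.5% a narrower range than MT1M. Those genes reach down to a mean of 1 FPKM, below the mean of every member, and ranges at a matched level were not compared. MT1A (2.13-fold) was also under the median, and MT1X (2.98-fold) and MT2A (3.42-fold) were above it.

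The genes most like MT2A were CRSP8P, AP1M2, RPL15, CXorf40B and OAZ2. They were the 5 with the smallest Euclidean distance of log2 FPKM, centred over the 4 libraries, among 2135 genes with a mean of at least 10 FPKM, at distances of 0.24 to 0.33. RPL15, a protein of the large ribosomal subunit, stood at 375 FPKM in 2U against 567 in 2T, and 994 in 4U against 680.3 in 4T. Among the members MT1A was nearest to MT2A, in place 109 at 0.72, and MT1X was farthest, in place 1578 at 1.99. A likeness over 4 libraries is a description only.

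The remaining metallothionein genes were mostly low. Of 13 others listed, 8 were in the table, and MT3 and MT4, the forms of brain and of stratified epithelium, were at 0 throughout. The pseudogene MT1JP stood at 89.6 FPKM at 2 h and 80.5 at 4 h in untreated cells, and 101 and 93.4 in treated cells, above MT1X in 2T and 4T. MT1L stood at 21.1 to 28.3 FPKM. MT1H was lower in 2T than in 2U (1.05 against 2.28 FPKM) and MT1B higher in 4T than in 4U (3.43 against 1.002), the only ones of the 4 compared that passed 2-fold at either time. Their median log2 ratios were 0.24 at 2 h and 0.01 at 4 h, beside 0.03 and -0.35 over all genes.

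Most regulators of the family were barely measured. MTF1, the zinc sensor that drives metallothionein transcription, stood at 0.103 FPKM in 2U against 0 in 2T, and 0.287 in 4U against 0.359 in 4T. Of the 6 regulators listed, only USF2 had a mean of at least 1 FPKM, with log2 ratios of 0.17 and -0.60. Among those under it, NFE2L2 stood at 0.0885 FPKM in 2U against 1.40 in 2T, and 0.508 in 4U against 1.77 in 4T. SP1 went the other way, at 0.19 FPKM in 2U against 0.055 in 2T, and 0.22 in 4U against 0 in 4T. SLC30A1, the zinc exporter of the plasma membrane and itself a target of MTF1, stood at 6.49 FPKM in 2U and was listed at 0 in 2T, and stood at 2.64 in 4U and 0.412 in 4T. The log2 ratio of SLC30A1 at 4 h was -2.68, and none is given at 2 h.

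Other genes of zinc handling had no common direction. For this and the later lists, 22.6% of all genes were at least 2-fold higher and 18.7% lower at 2 h. At 4 h the shares of all genes were 16.4% and 27.7%. The median log2 ratio of all genes was 0.03 at 2 h and -0.35 at 4 h. Of 10 zinc exporters, 4 were listed at 0 in all libraries, and besides SLC30A1 only SLC30A3 could be compared at 4 h, at -0.02. Of 14 zinc importers, 4 were compared at each time. At 2 h 1 was at least 2-fold higher and 1 lower, with a median of 0.47, and at 4 h 0 were higher and 2 lower, with a median of -0.72. SLC39A1, an importer of the plasma membrane, was lower at both times, at 23.0 FPKM at 2 h and 16.9 at 4 h in untreated cells, and 10.4 and 7.54 in treated cells (log2 ratios -1.15 and -1.16).

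Genes of copper and iron handling were mixed. Of the copper genes, 1 of 6 compared was at least 2-fold higher and 0 lower at 2 h (median -0.05), which leaves out SCO2 because it was listed at 0 in 2T and stood at 84.1 FPKM in 2U, and 2 of 7 were higher and 1 lower at 4 h (median 0.04). COX17, which carries copper to cytochrome c oxidase, was higher at both times, at 5.42 FPKM in 2U against 12.9 in 2T, and 6.72 in 4U against 15.3 in 4T (log2 ratios 1.25 and 1.19). Of 4 iron genes compared, only FTL, the light chain of the iron store ferritin, passed 2-fold, at 2 h with a log2 ratio of 3.26. FTL stood at 1883 FPKM in 2U against 18098 in 2T, and 14208 in 4U against 19004 in 4T (log2 ratio 0.42). The 2U value was thus also far below that of 4U, and the part of this in the 2 h ratio was not tested. FTH1, the heavy chain, had -0.10 and 0.09. The medians were -0.18 at 2 h and 0.25 at 4 h over the 4 genes.

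The metallothioneins were also set beside genes of other stress responses that can share their inducers. Over all genes, 22.6% were at least 2-fold higher and 18.7% lower at 2 h (median 0.03). At 4 h these shares were 16.4% and 27.7% (median -0.35). Of 10 heat shock genes, 2 were at least 2-fold higher and 3 lower at 2 h (median -0.29), and 4 were higher and 4 lower at 4 h (median -0.46). HSPA1A, an inducible HSP70 chaperone, stood at 2347 FPKM at 2 h and 473 at 4 h in untreated cells, and 21.1 and 11.9 in treated cells. HSPA1B, a near-identical copy with which reads may be shared, had log2 ratios of -6.72 and -5.13. DNAJB1, an HSP40 co-chaperone, had -5.28 and -2.81, and HSPD1, the mitochondrial HSP60, had 2.53 and 1.88. These genes were named for passing 2-fold in the same direction at both times, so their ratios cannot be ranked against those of the metallothioneins. Among the others of the list, HSPH1 was nearer to 0 (log2 ratios -0.60 and 0.04) and HSPA8 was higher at both times (2.15 and 1.33).

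Of 6 NRF2 targets compared, 0 were at least 2-fold higher and 1 lower at 2 h (median -0.30), and 2 were higher and 3 lower at 4 h (median -0.63). GCLM, the modifier subunit of the enzyme that starts glutathione synthesis, had log2 ratios of -4.07 and -1.52. These rest on low values, 4.53 FPKM in 2U against 0.27 in 2T, and 1.56 in 4U against 0.546 in 4T. The 2 targets higher at 4 h were TXNRD1 (1.34) and TXN (1.38). Of 3 glucocorticoid targets compared, 0 were higher and 2 lower at 2 h (median -1.46), and 0 were higher and 1 lower at 4 h (median -0.72). NFKBIA, the inhibitor of NF-kB, had -2.71 and -1.85.

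Genes next to the cluster on chromosome 16 were compared with the members. Of 5 compared, 1 was at least 2-fold higher and 1 lower at 2 h (median -0.56). At 4 h 1 was higher and 2 lower (median -0.81). Over all genes, 22.6% were higher and 18.7% lower at 2 h (median 0.03), and 16.4% and 27.7% at 4 h (median -0.35). HERPUD1, a protein of the endoplasmic reticulum stress response, was lower at both times, at 164 FPKM in 2U against 5.48 in 2T, and 23.6 in 4U against 8.32 in 4T.

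**Figure D4:**
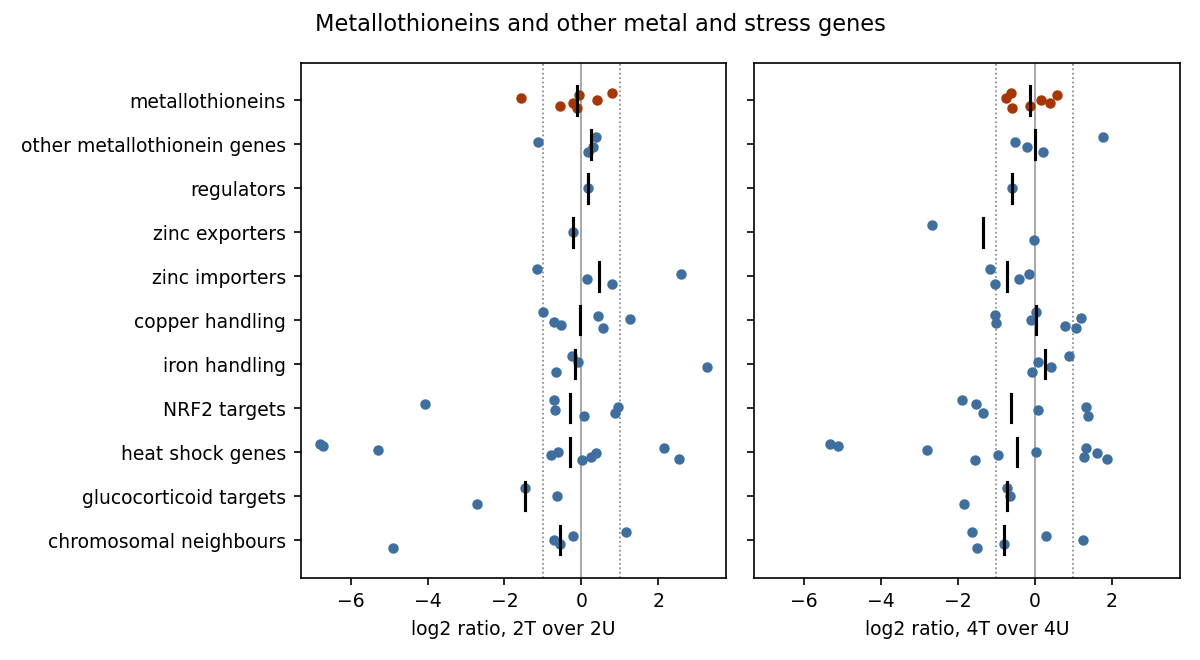
Log2 ratio of treated over untreated FPKM at 2 h (left) and 4 h (right) for the metallothioneins (brown) and the listed gene groups (blue), with 1 point per gene with a mean of at least 1 FPKM that is above 0 in both libraries, a bar at the median and dotted lines at 2-fold. SLC30A1 and SCO2 at 2 h are not drawn because they were listed at 0 in 2T, and the heat shock genes reach -6.80, while the metallothioneins lie between -1.58 and 0.80.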

How the data were processed

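The mRNA libraries of SK-HEP-1 were made from PCR-amplified cDNA and sequenced on SOLiD 3. The authors mapped reads to hg19 allowing 2 mismatches, and deposited FPKM per gene. The submitters' notes name TopHat and Cufflinks, with versions not given in the sources used here. The table of the 4 libraries was used as deposited, and the miRNA tables were not used here. Genes above 0 numbered 10691 for 2U, 8454 for 2T, 9550 for 4U and 9773 for 4T. The paper's library statistics print the same gene numbers for both 4 h libraries. For 2U the printed number is lower than the count here, and for 2T it is higher. The source of this mismatch was not tested, nor was its part in the 2 h ratios, that of MT1X among them. FPKM give no counts, so no counting interval is given for a gene. Approximate reads per gene used the totals of mapped reads in the study's library statistics.

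Log2 ratios used no pseudocount and required values above 0 in both libraries. All genes with a mean of at least 1 FPKM over the 4 libraries formed the background, and 2-fold counted as changed. With 1 library per condition no test was planned. A comparison over both times with limma 3.58.1 in R 4.3.3, on log2 FPKM with Benjamini-Hochberg adjustment, was added later. Python 3.11.15, numpy 2.4.6, pandas 2.3.3 and matplotlib 3.10.9 were used. Named genes were all 7 members, MTF1, SLC30A1, up to 4 genes per list at least 2-fold in the same direction at both times, and the 5 genes most like MT2A. Others from the lists were chosen after their values were seen. The members and lists were chosen with earlier results of these data known. A gene of the NRF2 list is not reported here and was left out of its counts. Pseudocount, scaling, minimum level and fold were varied, and a summary log2 ratio was called moved when it differed by 0.1 or more.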

Additional observations from a re-analysis of the deposited data

Results flagged for a closer look

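For 3 members the treated library lay on opposite sides of its untreated library at 2 h and at 4 h. The log2 ratio at 4 h minus that at 2 h was -1.42 for MT2A, which was above its untreated level at 2 h and below it at 4 h. It was 0.65 for MT1E and 0.61 for MT1M, which were below at 2 h and above at 4 h. Each rests on 1 library per condition, and the difference was not tested. For MT2A the untreated libraries differed by 1.78 on the log2 scale, more than the treated ones (0.35), and for MT1E the 2 h ratio was only -0.06.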

How the results depend on the processing

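With 1 library per condition no replicate could be left out. Without the time as a block (2 residual degrees of freedom), limma again gave 0 members and 0 of 5199 genes past an adjusted p of 0.05. MT1X was then the 1 member with an unadjusted p under 0.05 (adjusted p = 0.171), beside 1312 genes (25.2%). Pseudocounts of 1 and 0.1 FPKM and scaling to a sum of 1000000 moved none of the counts, medians and sums by the limits used here. No minimum level and a minimum mean of 5 FPKM could not change the member counts or medians. The lowest member mean was 11.7 FPKM (MT1A), so the same 7 genes were kept. With 1.5-fold in place of 2-fold, 1 member was higher at 2 h, beside 32.2% of all genes. At 4 h 1 was higher and 3 were lower, beside 24.8% and 42.3%. With 3-fold 0 were lower at 2 h, beside 8.52%. Median scaling changed the median log2 ratio of the 7 genes to 0.24 at 4 h and to -0.43 for 4U against 2U, and the summed log2 ratio at 4 h to -0.17. Upper quartile scaling gave 0.17, -0.42 and -0.24 in the same order, and 0.34 for the median of 4T against 2T. Both scalings changed the sign of 3 of 28 single-gene ratios, namely MT1G at 4 h, MT1F for 4U against 2U and MT1M for 4T against 2T. The comparisons with limma and the 2 that follow were chosen after seeing the data. Adding the other listed metallothionein genes moved neither sum, and could hardly do so, since they came to only 113 to 130 FPKM per library. Setting each treated library against the untreated library of the other time gave a median of -0.29 for 2T and 0.0903 for 4T. The summed log2 ratios were then -0.85 and 0.95. At least 2-fold lower in 2T were 2 members, beside 19.1% of all genes. In 4T 1 was higher and 1 lower, beside 22.4% and 22.8%. This exchange of untreated libraries changed the sign of 6 of 14 single-gene ratios, and MT1X kept its sign.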

Other observations

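The genes whose levels over the 4 libraries were most like those of MT1X were looked up after its values were seen. NUP62, a nuclear pore protein, was nearest of 2135 genes, at a distance of 0.11, and SGK1, a kinase whose gene responds to glucocorticoids, was second at 0.13. SGK1 stood at 35.7 FPKM in 2U against 12.9 in 2T, and 25.9 in 4U against 15.7 in 4T. PSMB3, a proteasome subunit, was the fifth nearest, at 1673 FPKM at 2 h and 1332 at 4 h in untreated cells, and 669.7 and 734 in treated cells. Likeness over 4 single libraries was not tested.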
